A study of Mus musculus with 36 samples.

Results

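A set of 10 genes of hepatic bile acid metabolism was followed in mouse liver: 4 cytochrome P450 genes of bile acid synthesis (Cyp7a1, Cyp8b1, Cyp27a1 and Cyp7b1), 3 transporter genes (Slc10a1, Abcb11 and Abcb4), the bile acid receptor gene Nr1h4 (which encodes FXR), its target Nr0b2 (which encodes SHP), and Fgfr4, the receptor gene for the intestinal hormone FGF15. They were chosen by symbol from the gene names in the array files. The 10 genes had 18 probes among 37325 genes on the array, and all 10 were among the 24234 genes tested. RNA was measured in 36 livers of male C57Bl/6J mice, with 1 single-colour Agilent array per mouse and 6 mice in each of 6 groups. The groups combined genotype (CTRL, or AAKO, which lacks the lipase ATGL in white adipose tissue) with condition: fed ad libitum, a 24 h fast, or feeding plus CL316243 at 3 mg/kg. CL316243 is an agonist of the beta 3 adrenergic receptor, which drives fat breakdown in adipocytes, and was given by gavage at Zeitgeber time 10 in 0.5% carboxymethyl cellulose. Livers were taken at Zeitgeber time 16, after lights off. The promoter used for the adipose deletion and the age of the mice are not given in the sources used here, and gavage is described for the CL316243 groups alone, so it cannot be told apart from the drug. Both fed groups came from experiment 2 and the other 4 groups from experiment 1, so fed mice and experiment cannot be told apart in comparisons of a condition with feeding. The 2 genotypes of a condition, like the fasted and CL316243 mice, belonged to the same experiment.

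Bile acids are made from cholesterol in hepatocytes. The classical pathway begins with CYP7A1, its rate-limiting enzyme, and CYP8B1 then steers the product towards cholic acid. CYP27A1 and CYP7B1 carry the alternative, acidic pathway. NTCP (Slc10a1) takes conjugated bile acids up from portal blood, BSEP (Abcb11) exports bile salts across the canalicular membrane, and MDR2 (Abcb4) moves phosphatidylcholine into bile. FXR senses bile acids and induces Nr0b2 and Abcb11, while SHP in the liver and FGF15 acting through FGFR4 restrain Cyp7a1. In rodents Cyp7a1 also cycles over the day and with feeding.

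The identity of a probe decided 1 gene, so the starts of 4 probes are printed. Slc10a1 had a pair of probes. The brighter of them lists RefSeq transcripts of 4 genes, and 18 other probes on the array, all named for other genes, shared a run of at least 16 bases with it on either strand. The other Slc10a1 probe shared no such run with any probe and represents the gene here. Of the remaining 16 member probes, both Nr1h4 probes and the Abcb11 probe each shared such a run with 1 probe of another name. The representing probes of Abcb4 and Nr1h4, which had the smallest adjusted p-values between fasted genotypes, follow. Each line gives the first 30 of 60 bases as the array files hold them, with the mm9 position of the whole probe.
Slc10a1, probe listing 1 gene (chr12:82054180-82054239, minus strand): ccacaacctgcttcatgttgtaactcaaaa
Slc10a1, probe listing 4 genes (chr12:82056539-82056598, minus strand): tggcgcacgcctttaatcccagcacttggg
Abcb4 (chr5:8959108-8959167, plus strand): agctgctggcgcagaagggcatctatttct
Nr1h4 (chr10:88917222-88917281, minus strand): tcaggaaaccccactggcatgcccttttgg

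The probe listing several genes gave almost the same signal in every group. The other was lower in AAKO than CTRL mice when fasted and after CL316243, but not when fed. On the scale used throughout, which is log2 signal minus that of the array's 75th percentile, the AAKO minus CTRL difference of the Slc10a1 probe listing 4 genes was 0.03 ± 0.06 (standard error) when fasted and 0.06 ± 0.06 after CL316243. The probe listing 1 gene gave -0.73 ± 0.14 and -0.45 ± 0.14. Which exon or UTR a probe lies in was not analysed here.

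Promoter sequence was at hand from RefSeq (GRCm38.p6) for 8 of the 10 genes, and 3 stretches are shown because they hold motifs of the regulators measured here. Each gives the 100 bases before the annotated start, in the direction of transcription, with matched motifs in capitals. In Abcb11 the capitals mark an inverted repeat of the type FXR binds (GGNCA, any base, TGNCC) and, beside it, TGGACTTT, the reverse complement of AAAGTCCA, a motif of the HNF4 type. In Nr0b2 they mark TCAAGG, a motif of the LRH-1 (Nr5a2) type, and in Cyp8b1 AAAGTCCA.
Abcb11 (chr2:69342617-69342716, minus strand): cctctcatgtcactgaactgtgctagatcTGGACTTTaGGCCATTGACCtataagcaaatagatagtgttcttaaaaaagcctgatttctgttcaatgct
Nr0b2 (chr4:133553276-133553375, plus strand): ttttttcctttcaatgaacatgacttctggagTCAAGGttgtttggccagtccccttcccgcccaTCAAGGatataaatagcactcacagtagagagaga
Cyp8b1 (chr9:121916306-121916405, minus strand): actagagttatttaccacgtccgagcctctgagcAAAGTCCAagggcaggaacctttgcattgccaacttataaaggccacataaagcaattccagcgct

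A set of 5 motifs was searched on both strands of all 32851 promoter windows, each 250 bases before to 50 after a start. The inverted repeat lay in 0.676% of all windows and in 1 of the 8 member genes, Abcb11. AAAGTCCA lay in 1.25% of windows and in 2 members. TCAAGG lay in 14.4% of windows and in 1 member, Nr0b2, which held it at 2 places. CACGTG, the E-box read by clock factors, lay in 7.15% of windows and in Nr0b2 alone among the members. TTANGTAA, the D-box, lay in 2.32% and in no member. Within these windows no binding was measured, so a match is a description of sequence.

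All 18 member probes were well above background on all 36 arrays, and no spot was saturated. Per array, 33130 to 37200 of 56605 probes were well above background. The arrays were washed in 2 batches of 19 and 17, and each batch held arrays of all 6 groups. On the first principal component of all genes, AAKO fasted arrays lay between 102.79 and 110.74. CTRL fasted arrays lay between 16.76 and 28.99, except replicate 2 at 81.24. All arrays of the other groups lay below 0. Hepatocyte markers were bright in every group, with 5 of 5 measured markers well above background and a log2 summed level between 11.13 and 11.66 over all arrays. The summed level was 11.13 to 11.28 in AAKO fasted and 11.32 to 11.48 in CTRL fasted livers, with no overlap. Between fasted genotypes Alb (-0.14), F2 (-0.27) and Ttr (-0.47) were lower and Cps1 (0.51) higher in AAKO livers, and after CL316243 Cps1 alone of the 5 was called (0.70). With fasting against feeding in AAKO livers 1 of the 5 rose and 4 fell, beside 27.8% of all genes called higher and 35.7% lower. Levels per liver cannot tell fewer cells of a type from less RNA per cell. For cholangiocytes, 6 of 6 markers were well above background, with a log2 summed level of 1.93 to 2.59 in CTRL fasted and 1.52 to 2.91 in AAKO fasted livers. Of these, Krt19 (-0.76) and Sox9 (-0.90) were lower in AAKO than CTRL fasted livers, and Sox9 (-0.73) after CL316243. When fasted, 0 of 5 Kupffer cell markers, 2 of 4 endothelial markers (both higher), 1 of 4 stellate cell markers (higher) and 2 of 3 adipocyte markers (1 higher, 1 lower) differed in AAKO livers. After CL316243 these lists had 0, 1, 0 and 1 marker higher and none lower. Of all genes tested, 49.3% were called in either direction between fasted genotypes and 24.7% between genotypes after CL316243. All 3 ileal enterocyte markers were on the array and 1 was tested: Fabp2 was lower in AAKO than CTRL livers by 2.76 ± 0.19 when fasted (change -2.76) and by 0.89 ± 0.19 after CL316243 (change -0.89). In CTRL fasted livers Fabp6 and Vil1 failed that mark on every array. Cela2a, the pancreatic acinar marker tested of 3, was higher in AAKO livers by 2.01 ± 0.26 when fasted and 1.57 ± 0.26 after CL316243, while Pnlip failed the mark on all arrays. The part of other cell types in the results below was not tested.

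**Figure D1:**
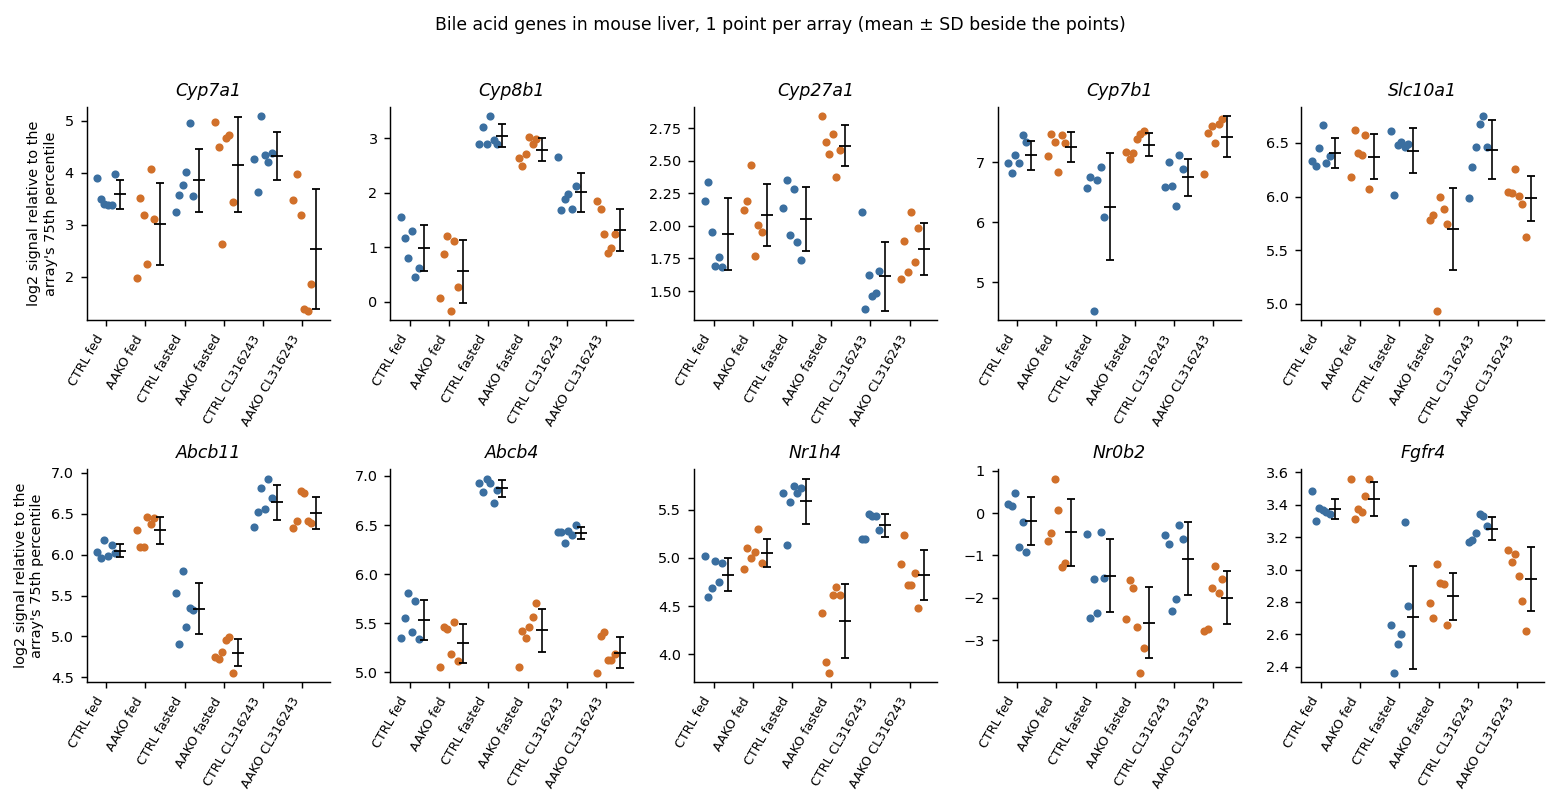
Log2 signal above the array's 75th percentile (y axis) of the 10 genes in 6 groups of 6 arrays (x axis), 1 point per array, with mean and SD in black, CTRL in blue and AAKO in orange. Abcb4 in CTRL fasted livers lies between 6.72 and 6.97, above every array of the other 5 groups, and Cyp7a1 in AAKO CL316243 livers spreads from 1.35 to 3.98.

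The first question of the design is what loss of adipose ATGL does to the liver in each condition. In fed mice no member differed between genotypes in limma's moderated test at an adjusted p under 0.05, the threshold for a call. Of all 24234 genes, 0.0330% were called higher and 0.0371% lower in AAKO fed livers, and 1640 genes had an unadjusted p under 0.05. Of the 17 calls 47.1% were higher, compared with 66.7% of 27 calls when the authors' deposited table of log2 values was refitted the same way. In that table all columns of a group hold the same sorted values, so its calls are not like for like with those here. The nearest member to a call was Abcb4, at -0.24 ± 0.10 (adjusted p = 0.658). After a 24 h fast, 7 of 10 members were called: Cyp7b1 and Cyp27a1 were higher in AAKO than CTRL livers, and Abcb4, Nr1h4, Nr0b2, Slc10a1 and Abcb11 lower. The background was high, since 21.3% of all genes were called higher and 28.0% lower, so a count of calls says little by itself. After CL316243, 7 members were again called between genotypes, against 13.4% of all genes higher and 11.3% lower. Cyp7b1 was higher in AAKO than CTRL livers, and Cyp7a1, Abcb4, Cyp8b1, Nr1h4, Slc10a1 and Fgfr4 were lower. In the values the authors deposited 42.2% of the calls after CL316243 were higher, compared with 54.3% here. The median difference of the 10 members was -0.39 when fasted and -0.48 after CL316243, beside -0.04 and 0.03 over all genes tested.

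**Figure D2:**
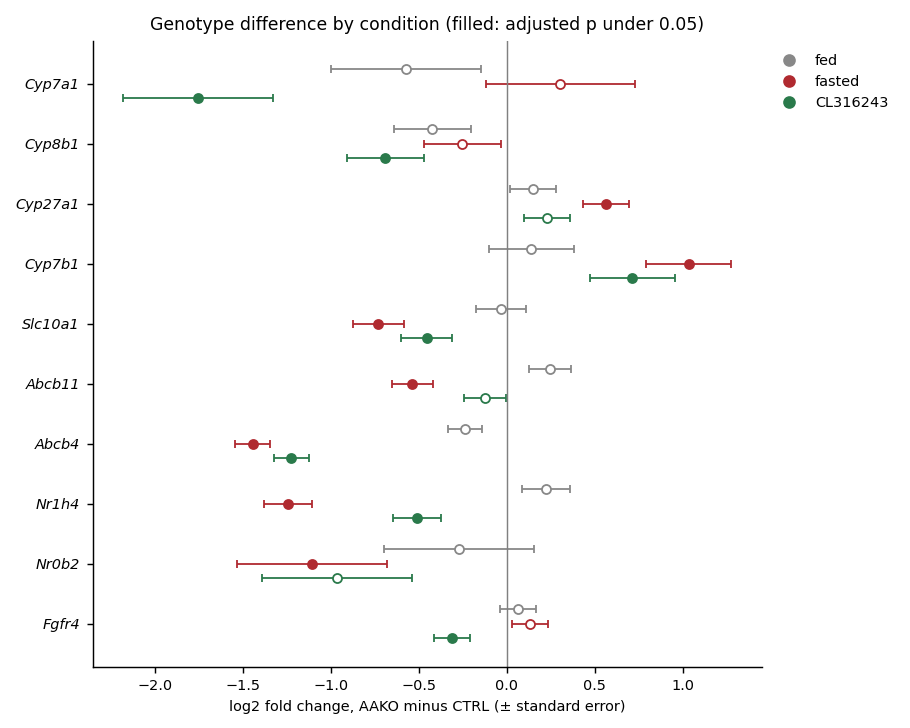
Log2 fold change of AAKO over CTRL (x axis, with the standard error of the fit) of the 10 genes (y axis) in fed, fasted and CL316243 mice, filled where the adjusted p was under 0.05. Abcb4 lies at -1.44 when fasted and -1.22 after CL316243, and no fed value is filled.

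Cyp7a1 spread widely among mice of a group, and AAKO livers were below CTRL livers after CL316243. In CTRL CL316243 livers its lowest, median and highest values were 3.64, 4.31 and 5.08. In AAKO CL316243 livers they were 1.35, 2.52 and 3.98. The ranges overlapped, and replicates 4, 5 and 6 of the AAKO group lay below every array of the other 5 groups. The AAKO minus CTRL difference was -1.75 ± 0.43, a 3.37-fold lower level (adjusted p = 0.00253). The wash batches gave -1.40 and -2.30, and the call was lost in batch 1 alone (adjusted p = 0.152). When fasted, AAKO values ran from 2.64 through 4.58 to 4.98 and CTRL values from 3.24 through 3.67 to 4.96, and the difference of 0.30 ± 0.42 was not called (95% interval -0.56 to 1.17). Here the wash batches had opposite signs, -0.57 in batch 1 and 1.18 in batch 2, and neither was called. The genotype difference when fasted exceeded that after CL316243 by 2.06 ± 0.60 (adjusted p = 0.00844), and the wash batches stood at 0.82 and 3.48, the first not called. The excess over fed mice, -1.18 ± 0.60, was not called. The second Cyp7a1 probe gave -1.50 for the CL316243 genotype difference and 1.98 for this interaction, both called.

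Cyp8b1 rose with fasting in both genotypes, more than any other member. In CTRL livers it lay at 0.46, 0.99 and 1.55 (lowest, median, highest) when fed and at 2.89, 2.93 and 3.39 when fasted. In AAKO livers it lay at -0.16, 0.57 and 1.20 when fed and at 2.49, 2.80 and 3.02 when fasted. Every fasted array was above every fed array of its genotype. The rise was 2.06 ± 0.22, or 4.16-fold, in CTRL (adjusted p = 3.77e-09) and 2.23 ± 0.22, or 4.68-fold, in AAKO (adjusted p = 1.50e-10), and the interaction of genotype with fasting was 0.17 ± 0.31. Within wash batches 1 and 2 the rise was 1.83 and 2.28 in CTRL and 2.01 and 2.45 in AAKO livers, each called. CL316243 against feeding gave a smaller rise, 1.02 ± 0.22 in CTRL and 0.75 ± 0.22 in AAKO livers, and within wash batches it was 0.69 and 1.35 in CTRL, the first not called, and 0.72 and 0.66 in AAKO livers, neither called. The AAKO call was also lost in a fit to the groups of the contrast (0.70). Fasted livers were above CL316243 livers, by 1.04 ± 0.22 in CTRL and 1.47 ± 0.22 in AAKO, so the difference between those conditions was present within experiment 1. Between genotypes Cyp8b1 was lower in AAKO livers after CL316243 (-0.69 ± 0.22, adjusted p = 0.0188). That call was lost without replicate 1 of CTRL CL316243 (-0.56) or replicate 4 (-0.60) or 5 (-0.63) of AAKO CL316243, with the slide as a fixed factor (-0.60), and in either wash batch alone, at -0.34 and -1.16.

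The genes of the alternative pathway were higher in AAKO than CTRL livers when fasted. Cyp7b1, the oxysterol hydroxylase of that pathway, lay at 4.53, 6.64 and 6.91 in CTRL fasted livers and at 7.05, 7.28 and 7.52 in AAKO fasted livers, so no value overlapped. It was higher in AAKO by 1.03 ± 0.24, or 2.05-fold (adjusted p = 6.25e-04). Replicate 3 of CTRL fasted stood at 4.53, far below the other arrays, and without it the difference was 0.70 and still called. Within wash batches the difference was 1.40 and 0.67. After CL316243, 5 of 6 AAKO arrays were above every CTRL array, with values of 6.80, 7.55 and 7.72 against 6.27, 6.75 and 7.12. The difference of 0.71 ± 0.24 (adjusted p = 0.0293) was called, and the second Cyp7b1 probe gave 0.91 and was called. This call was lost without any 1 of replicates 1 (0.66), 3 (0.67) and 4 (0.63) of CTRL CL316243 and 2 (0.69), 5 (0.66) and 6 (0.64) of AAKO CL316243, within wash batch 1 (0.61), with the slide as a fixed factor (0.67), under quantile normalization (0.60) and in the authors' deposited table (0.62).

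Cyp27a1, the mitochondrial sterol hydroxylase, lay at 1.73, 2.03 and 2.35 in CTRL fasted livers and at 2.37, 2.62 and 2.84 in AAKO fasted livers. All AAKO arrays were above all CTRL arrays, by a narrow gap. The difference was 0.56 ± 0.13, or 1.48-fold (adjusted p = 4.98e-04), with 0.75 in wash batch 1 and 0.38 in batch 2, where the call was lost. After CL316243 the difference was 0.23 ± 0.13 and was not called (95% interval -0.04 to 0.49).

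Among the transporter genes, Abcb4 had the smallest adjusted p between genotypes of the 10 members, both when fasted and after CL316243. In CTRL livers it lay at 5.34, 5.48 and 5.81 when fed, at 6.72, 6.89 and 6.97 when fasted, and at 6.31, 6.43 and 6.50 after CL316243. In AAKO livers it lay at 5.06, 5.31 and 5.51 when fed, at 5.05, 5.44 and 5.71 when fasted, and at 5.00, 5.16 and 5.41 after CL316243. The 3 CTRL ranges did not overlap each other, and the 3 AAKO ranges overlapped throughout. Abcb4 rose in CTRL livers by 1.34 ± 0.10 with fasting and 0.88 ± 0.10 with CL316243, while AAKO livers gave 0.13 ± 0.10 and -0.10 ± 0.10, neither called. Fasted AAKO livers were below fasted CTRL livers by 1.44 ± 0.10, or 2.72-fold (change -1.44, adjusted p = 3.36e-13). After CL316243 the gap was 1.22 ± 0.10, or 2.34-fold (change -1.22, adjusted p = 2.60e-10). Within wash batches 1 and 2 the genotype difference was -1.35 and -1.54 when fasted and -1.25 and -1.15 after CL316243, each called. The genotype difference exceeded that of fed mice by -1.21 ± 0.14 in the fast (adjusted p = 7.03e-08) and by -0.99 ± 0.14 with CL316243 (adjusted p = 1.25e-05). All 3 Abcb4 probes gave these calls, with genotype differences between -1.62 and -1.44 when fasted.

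Slc10a1, the uptake carrier, was lower in AAKO than CTRL livers when fasted and after CL316243, while neither treatment gave a call in CTRL livers (0.02 ± 0.14 and 0.03 ± 0.14). Its CTRL values were 6.29, 6.36 and 6.66 when fed, 6.02, 6.48 and 6.61 when fasted, and 5.99, 6.46 and 6.75 after CL316243. In AAKO livers they were 6.07, 6.39 and 6.62 when fed, 4.94, 5.80 and 6.00 when fasted, and 5.63, 6.02 and 6.26 after CL316243. All AAKO fasted arrays lay below all CTRL fasted arrays, and after CL316243 the genotypes overlapped. The difference was -0.73 ± 0.14, or 1.66-fold, when fasted (adjusted p = 8.26e-05). It was -0.81 without replicate 2 of CTRL fasted and -0.57 without replicate 3 of AAKO fasted, both far from their groups and both still called. Within wash batches it was -0.97 and -0.49, and the call was lost in batch 2 (adjusted p = 0.0530). After CL316243 the difference was -0.45 ± 0.14 (adjusted p = 0.0195), and the call was lost without replicate 4 (-0.40) or 5 (-0.39) of CTRL CL316243 or 6 (-0.38) of AAKO CL316243, within wash batch 2 (-0.17), and with the mean over both probes (-0.20). If the brightest probe stood for the gene, an alternative added after the data were seen, Slc10a1 would be called in no comparison.

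Abcb11, the bile salt export pump, fell with fasting in both genotypes and rose with CL316243 in CTRL livers (0.59 ± 0.12). It lay at 5.96, 6.02 and 6.18 in CTRL fed, 4.91, 5.34 and 5.79 in CTRL fasted and 6.33, 6.62 and 6.93 in CTRL CL316243 livers. The corresponding AAKO values were 6.09, 6.34 and 6.46, then 4.56, 4.78 and 5.00, then 6.32, 6.41 and 6.77. In both genotypes every fasted array was below every fed and every CL316243 array. Fasting against feeding gave -0.71 ± 0.12 in CTRL and -1.49 ± 0.12 in AAKO livers, and within wash batches -0.55 and -0.87 in CTRL and -1.61 and -1.38 in AAKO livers, each called. The genotype difference when fasted was -0.54 ± 0.12, or 1.45-fold lower in AAKO (adjusted p = 2.98e-04). The ranges overlapped through replicate 2 of CTRL fasted alone, at 4.91. Within wash batches it was -0.79 and -0.28, and the call was lost in batch 2. After CL316243 the genotype difference of -0.12 ± 0.12 was not called (95% interval -0.37 to 0.12).

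Nr1h4, the gene for FXR, rose with both treatments in CTRL livers and fell with fasting in AAKO livers. CTRL values were 4.60, 4.84 and 5.02 when fed, 5.13, 5.67 and 5.75 when fasted, and 5.20, 5.37 and 5.46 after CL316243. AAKO values were 4.88, 5.03 and 5.30 when fed, 3.81, 4.52 and 4.70 when fasted, and 4.48, 4.78 and 5.24 after CL316243. Every CTRL fasted array lay above, and every AAKO fasted array below, the fed arrays of its genotype, which came from another experiment. The changes with fasting were 0.76 ± 0.14 in CTRL (adjusted p = 2.79e-05) and -0.70 ± 0.14 in AAKO livers (adjusted p = 4.35e-05), and their difference, the interaction of genotype with fasting, was -1.46 ± 0.19 (adjusted p = 7.20e-07). Within wash batches 1 and 2 Nr1h4 rose by 0.92 and 0.61 in CTRL livers and fell by 1.00 and 0.40 in AAKO livers, each called, and the interaction was -1.92 and -1.01, both called. AAKO fasted livers were lower than CTRL fasted livers by 1.24 ± 0.14, or 2.37-fold (adjusted p = 6.39e-09), with -1.55 and -0.94 within the wash batches, both called. After CL316243 AAKO livers were lower by 0.51 ± 0.14 (adjusted p = 0.00598), with -0.48 and -0.60 within the wash batches, the first not called. The second Nr1h4 probe, which lists no RefSeq transcript, gave -1.51 for the fasted genotype difference and was called, but -0.31 after CL316243 and 0.15 for fasting in CTRL livers, neither called.

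Nr0b2, the gene for the repressor SHP, fell with fasting in both genotypes. It lay at -0.91, -0.02 and 0.47 in CTRL fed and -2.48, -1.54 and -0.46 in CTRL fasted livers, and at -1.27, -0.56 and 0.81 in AAKO fed and -3.77, -2.59 and -1.58 in AAKO fasted livers. Fed and fasted arrays overlapped in CTRL and not in AAKO livers. The fall was 1.30 ± 0.42 in CTRL (change -1.30, adjusted p = 0.0130) and 2.13 ± 0.42 in AAKO livers (change -2.13, adjusted p = 5.42e-05), and the interaction of -0.84 ± 0.60 was not called. Within wash batches the change was -1.12 and -1.47 in CTRL livers, neither called, and -2.06 and -2.21 in AAKO livers, both called. In fasted mice Nr0b2 was lower in AAKO by 1.11 ± 0.42, or 2.15-fold (adjusted p = 0.0302). That call was lost without replicate 1 (-0.87) or 5 (-0.93) of CTRL fasted or 5 (-0.89) or 6 (-0.95) of AAKO fasted, under normexp background correction (-0.69), in the authors' deposited table (-0.81) and in either wash batch alone (-1.01 and -1.21). After CL316243 the genotype difference was -0.97 ± 0.43 and was not called (adjusted p = 0.0980, 95% interval -1.84 to -0.10).

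Fgfr4 fell with fasting in both genotypes, -0.67 ± 0.10 in CTRL and -0.60 ± 0.10 in AAKO livers, and -0.48 to -0.85 within the wash batches of either genotype, each called. The interaction of genotype with fasting was 0.07 ± 0.14 (95% interval -0.23 to 0.36). Its values were 3.30, 3.36 and 3.48 in CTRL fed against 2.36, 2.63 and 3.29 in CTRL fasted livers, and 3.31, 3.41 and 3.56 against 2.66, 2.85 and 3.03 in AAKO livers, with no overlap in either genotype. After CL316243 the AAKO arrays (2.62, 3.00 and 3.12) all lay below the CTRL arrays (3.17, 3.25 and 3.34). That difference was -0.31 ± 0.10, or 1.24-fold (adjusted p = 0.0241), with -0.38 and -0.19 in the wash batches, neither called. It lost its call without replicate 4 of CTRL CL316243 (-0.29) or replicate 5 (-0.28) or 6 (-0.25) of AAKO CL316243, and when the 3 Fgfr4 probes were averaged (-0.25).

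The second question is how each condition changed the members against feeding, where experiment and condition cannot be told apart. In CTRL livers, fasting raised Cyp8b1, Abcb4 and Nr1h4 and lowered Cyp7b1, Abcb11, Nr0b2 and Fgfr4, while 20.9% of all genes were called higher and 22.4% lower. In AAKO livers, fasting raised Cyp7a1, Cyp8b1 and Cyp27a1 and lowered Slc10a1, Abcb11, Nr1h4, Nr0b2 and Fgfr4, while 27.8% were called higher and 35.7% lower. Slc10a1 changed by -0.68 ± 0.14 in AAKO livers, with -0.95 in wash batch 1 and -0.41 in batch 2, where the call was lost. Cyp7a1 changed by 1.14 ± 0.42 in AAKO livers, and the call was lost without replicate 1 (0.91) or 4 (1.00) of AAKO fed or 1 (0.99) of AAKO fasted and within wash batch 1, at 0.36 against 1.93 in batch 2. The second Cyp7a1 probe gave 1.00 and was not called (adjusted p = 0.0551). Cyp7b1 changed by -0.86 ± 0.24 in CTRL livers, by -0.52 without replicate 3 of CTRL fasted, still called, and by -1.13 and -0.58 in the wash batches, the first not called. That Cyp7b1 call was lost in a fit to the groups of the contrast (adjusted p = 0.0519). CL316243 raised Cyp8b1, Abcb11, Abcb4 and Nr1h4 in CTRL livers and lowered no member, while 10.4% of all genes were called higher and 12.8% lower. All 4 of those genes, picked by their call in this comparison, had every CTRL CL316243 array above every CTRL fed array. The share of all genes separated in this way was not counted. For Nr1h4 the change was 0.51 ± 0.14, and its call was lost in either wash batch alone (0.61 and 0.41) and with its probes averaged (0.31). The Cyp8b1 call was lost in wash batch 1 (0.69) and the Abcb11 call in batch 2 (0.56). In AAKO livers CL316243 raised Cyp8b1 and lowered Slc10a1, Nr0b2 and Fgfr4, while 15.7% were called higher and 15.7% lower. Slc10a1 changed there by -0.39 ± 0.14, and the call was lost without any 1 of replicates 2 to 5 of AAKO fed or 4 to 6 of AAKO CL316243, at -0.40 to -0.32, and in either wash batch alone (-0.54 and -0.16). That Slc10a1 call was lost too with the mean over its probes (-0.14), under quantile normalization (-0.33) and with no filter on dim probes (-0.39, adjusted p = 0.0615). Nr0b2 changed by -1.60 ± 0.43, with -2.11 in wash batch 1 and -0.74 in batch 2, where the call was lost. Both the fasted and the CL316243 comparison of a genotype use the same 6 fed arrays.

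**Figure D3:**
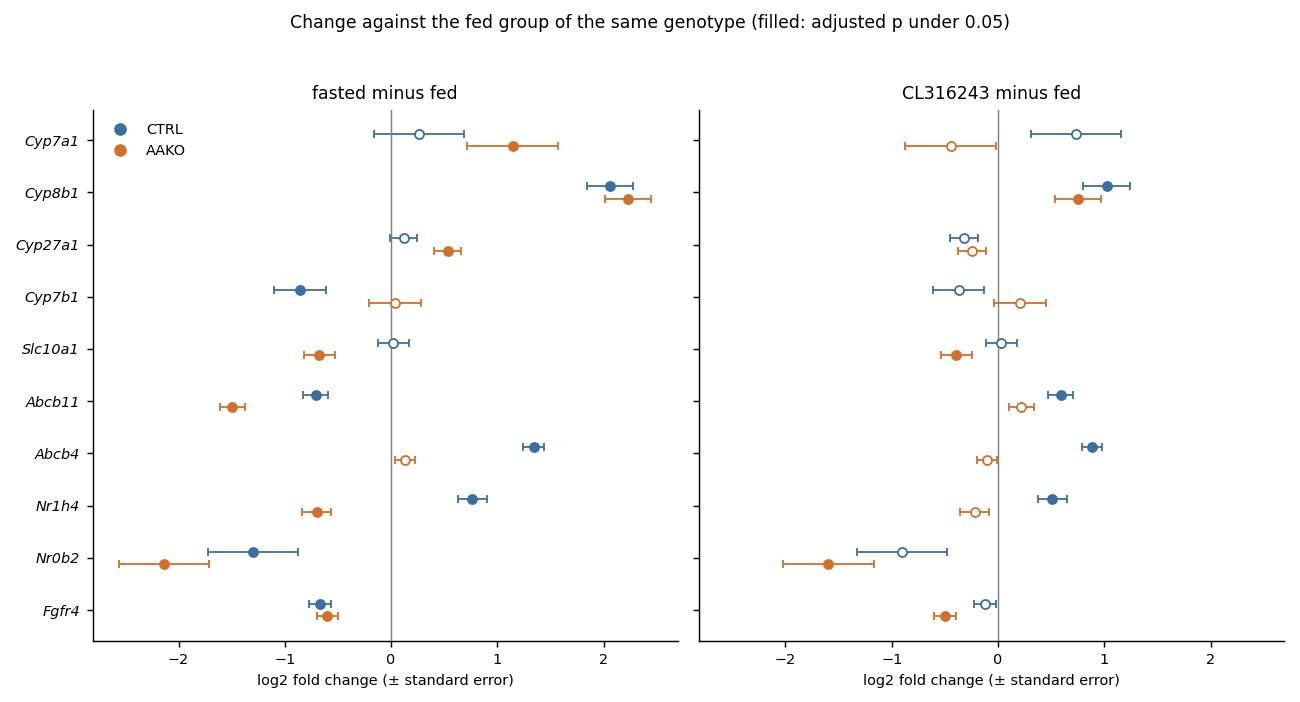
Log2 fold change against the fed group of the same genotype (x axis, with the standard error of the fit) of the 10 genes (y axis), for fasting on the left and CL316243 on the right, CTRL in blue and AAKO in orange, filled where the adjusted p was under 0.05. Abcb4 lies at 1.34 in CTRL and 0.13 in AAKO livers with fasting, and Abcb11 lies below 0 with fasting and at 0.59 in CTRL livers with CL316243.

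Fasted and CL316243 mice were compared within experiment 1. In CTRL livers Cyp8b1, Cyp27a1 and Abcb4 were higher when fasted, and Abcb11 and Fgfr4 lower, while 19.3% of all genes were called higher and 17.6% lower. The Cyp27a1 call was lost in either wash batch alone (0.41 and 0.46) and the Fgfr4 call in batch 1 (-0.41). Abcb11 had the widest of these gaps, -1.30 ± 0.12 (adjusted p = 3.67e-10). In AAKO livers Cyp7a1, Cyp8b1, Cyp27a1 and Abcb4 were higher when fasted, and Abcb11 and Nr1h4 lower, while 26.2% were called higher and 33.8% lower. Cyp7a1 was higher by 1.59 ± 0.43 in AAKO livers (adjusted p = 0.00181), with 0.85 in wash batch 1, where the call was lost, and 2.51 in batch 2, and the second Cyp7a1 probe gave 0.97, not called. Abcb4 was higher there by only 0.24 ± 0.10, and the call was lost without any 1 of replicates 4 to 6 of AAKO fasted or 1, 4, 5 and 6 of AAKO CL316243, at 0.18 to 0.23. It was also lost in wash batch 2 alone (0.09), with no filter on dim probes (0.24, adjusted p = 0.0608) and in a fit to the groups of the contrast (0.23). Nr1h4 was lower there by 0.48 ± 0.14 (change -0.48), with -0.14 in wash batch 2, where the call was lost. Of the calls in this AAKO comparison over all genes, 43.7% were higher here, 31.4% after normexp background correction and 58.3% in the authors' deposited table.

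The third question is whether the genotypes responded differently. The interaction of genotype with fasting was called for Cyp7b1, Slc10a1, Abcb11, Abcb4 and Nr1h4, with 1 gene higher and 4 lower, while 14.5% of all genes were called higher and 19.3% lower. The values were 0.89 ± 0.34 for Cyp7b1, -0.70 ± 0.20 for Slc10a1, -0.78 ± 0.17 for Abcb11, -1.21 ± 0.14 for Abcb4 and -1.46 ± 0.19 for Nr1h4. The Cyp7b1 interaction was 0.56 without replicate 3 of CTRL fasted (adjusted p = 0.0599), and its call was also lost without any 1 of 12 other arrays: replicates 3 to 6 of CTRL fed, 1, 4 and 6 of AAKO fed, 6 of CTRL fasted and 3 to 6 of AAKO fasted, at 0.82 to 0.90. It was also lost in either wash batch alone (1.16 and 0.63), with scaling over probes detected on all arrays (0.85), with no filter on dim probes (0.89, adjusted p = 0.0660), in a fit to the groups of the contrast (0.89, adjusted p = 0.0626) and with the slide as a fixed factor (0.93). Within wash batch 2 the Slc10a1 and Abcb11 interactions were -0.44 and -0.51 and were not called. The interaction of genotype with CL316243 was called for Abcb4 (-0.99 ± 0.14) and Nr1h4 (-0.73 ± 0.19) and for no other member, while 6.33% of all genes were called higher and 4.50% lower. The Nr1h4 call was lost in either wash batch alone (-0.86 and -0.67) and with its probes averaged (-0.51), and the Abcb4 call in wash batch 2 (-0.89). Of those calls over all genes 58.4% were higher here and 44.1% in the authors' deposited table. The genotype difference when fasted minus that after CL316243 was called for Cyp7a1 (2.06 ± 0.60), Nr1h4 (-0.73 ± 0.19) and Fgfr4 (0.44 ± 0.14), while 12.7% were called higher and 19.6% lower. In wash batches 1 and 2 these values were -1.06 and -0.34 for Nr1h4, whose call was lost in batch 2, and 0.31 and 0.52 for Fgfr4, whose call was lost in batch 1. Here 39.3% of all calls were higher, compared with 55.1% in the authors' deposited table.

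**Figure D4:**
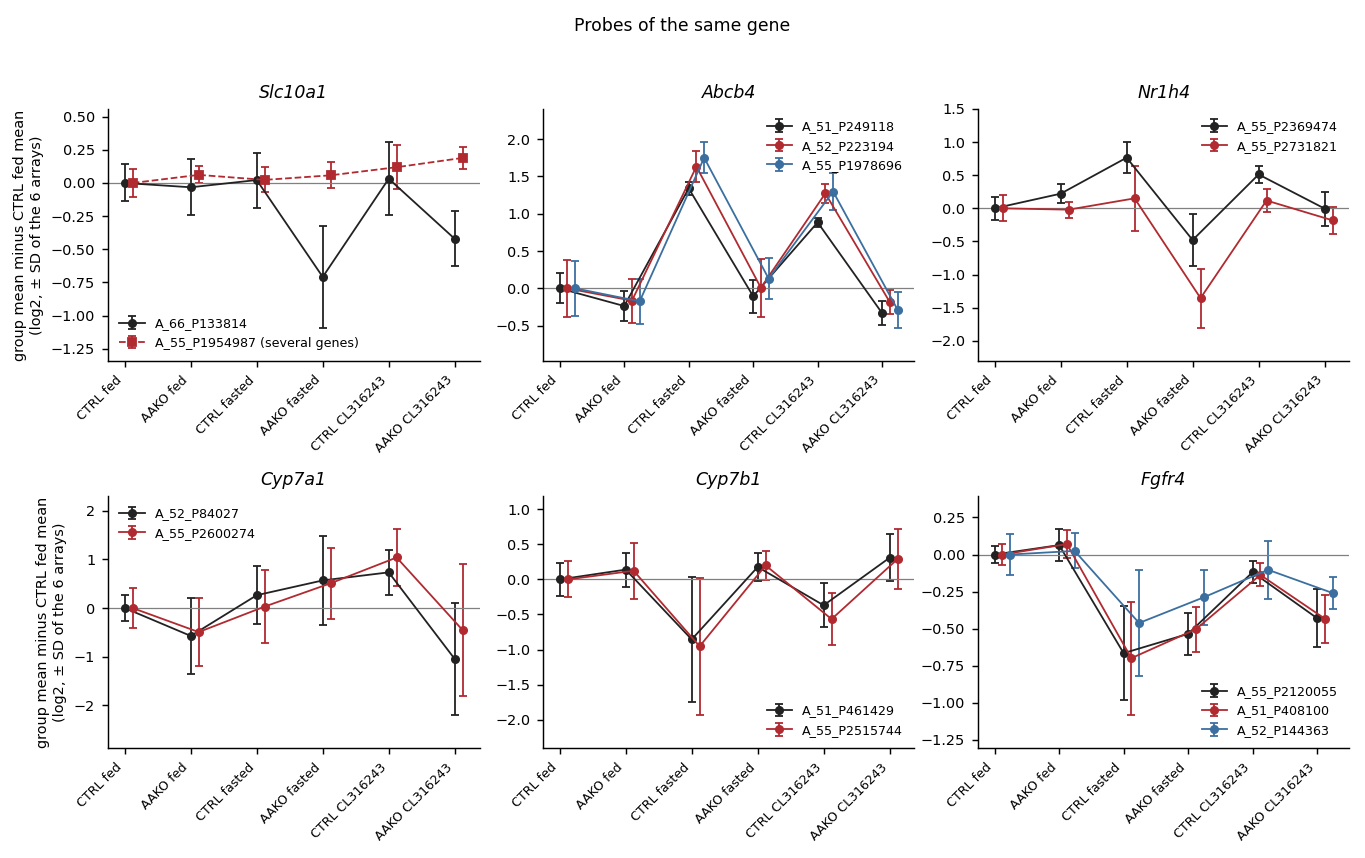
Group mean minus the CTRL fed mean (y axis, log2, with the SD of 6 arrays) in the 6 groups (x axis) for each probe of the 6 genes with more than 1 probe, with a dashed line for the Slc10a1 probe that lists several genes. The 3 Abcb4 probes run together, and the dashed Slc10a1 probe stays level where the solid one falls in AAKO fasted livers.

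Each gene ordered the 6 groups in its own way. Abcb4 ran from CTRL fasted (6.87 ± 0.09, SD, n = 6) through CTRL CL316243 (6.42 ± 0.06) to CTRL fed (5.53 ± 0.20), with no overlap between these neighbours, and then through the 3 AAKO groups, from 5.43 to 5.20, which overlapped. Nr1h4 ran from CTRL fasted (5.59 ± 0.23) to AAKO fasted (4.35 ± 0.39), and all neighbours in its order overlapped. Abcb11 ran from CTRL CL316243 (6.64 ± 0.22) to AAKO fasted (4.80 ± 0.16), and only the step from CTRL fed to CTRL fasted was free of overlap. Fgfr4 had such a step only between CTRL CL316243 (3.25 ± 0.07) and AAKO CL316243 (2.94 ± 0.19). For Cyp7a1, Cyp8b1, Cyp27a1, Cyp7b1, Slc10a1 and Nr0b2 all neighbouring groups overlapped. Cyp7a1 was highest in CTRL CL316243 (4.32 ± 0.46) and lowest in AAKO CL316243 livers (2.54 ± 1.15). Nr0b2 was highest in CTRL fed (-0.18 ± 0.57) and lowest in AAKO fasted livers (-2.58 ± 0.83).

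Other genes of the pathway, in lists by role, were measured beside the members. Of 15 genes of steroid ring modification, side-chain shortening, conjugation and other hydroxylations, all tested, 3 were higher and 10 lower in AAKO than CTRL fasted livers. Their median was -0.44 beside -0.04 over all genes tested, of which 21.3% were called higher and 28.0% lower. Ch25h, which makes 25-hydroxycholesterol, was higher by 2.57 ± 0.35, and Cyp2c70, which makes muricholic acids in rodents, by 2.01 ± 0.22. The peroxisomal genes Hsd17b4 and Acot8 were lower, at -1.52 ± 0.08 and -1.51 ± 0.09. After CL316243, 3 were higher and 6 lower, beside 13.4% of all genes higher and 11.3% lower. Among the called genes were Cyp2c70 at 1.09 ± 0.22 and Cyp39a1, an oxysterol hydroxylase, at 0.64 ± 0.23. The peroxisomal transporter Abcd3 was at -1.06 ± 0.12 and the racemase Amacr at -0.84 ± 0.07.

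Of 15 further transport genes 14 were tested, and 5 were higher and 5 lower in AAKO fasted livers (median -0.08), beside 21.3% of all genes higher and 28.0% lower. The basolateral exporter Abcc4 was higher by 1.53 ± 0.23 and Slc10a2, the sodium-dependent carrier known from the ileum and bile ducts, by 1.20 ± 0.30. The basolateral exporter Abcc3 was lower, at -1.99 ± 0.21, as was the uptake carrier Slco1b2, at -1.59 ± 0.15. After CL316243, 1 was higher and 5 were lower, beside 13.4% of all genes higher and 11.3% lower. The higher gene was the flippase gene Atp8b1, at 0.40 ± 0.11. Among the lower were Abcc3 at -1.39 ± 0.21 and Ephx1, an epoxide hydrolase kept in that list, at -0.81 ± 0.11. Slc51a did not pass the filter on dim probes.

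Of 16 regulators 15 were tested, and 5 were higher and 4 lower in AAKO fasted livers (median 0.15), beside the same 21.3% and 28.0% of all genes. Klb, the co-receptor of FGFR4, was higher by 1.02 ± 0.15, Ppargc1a by 0.94 ± 0.24 and Hnf4a, a hepatocyte nuclear receptor, by 0.77 ± 0.11. Nr5a2, the gene for LRH-1, was lower, at -0.72 ± 0.14, as were the xenobiotic receptor gene Nr1i3, at -1.43 ± 0.15, and the sphingosine phosphate receptor gene S1pr2, at -0.94 ± 0.16. After CL316243, 3 were higher and 3 lower, beside 13.4% of all genes higher and 11.3% lower. Hnf4a was at 0.38 ± 0.11, the bile acid receptor gene Gpbar1 at 0.52 ± 0.19, Nr1i3 at -1.66 ± 0.15 and Nr1i2, the gene for PXR, at -0.67 ± 0.16. Klb (-0.06 ± 0.15) and Nr5a2 (0.08 ± 0.14) were not called. Fgf15, the intestinal hormone gene, did not pass the filter on dim probes.

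Of 8 clock factors known to act on Cyp7a1, all tested, 7 were higher and 1 lower in AAKO fasted livers. Their median was 1.37, beside -0.04 over all genes tested, of which 21.3% were called higher and 28.0% lower. Nr1d1, the gene for REV-ERB alpha, was higher by 2.17 ± 0.38 and Bhlhe40 by 2.12 ± 0.20, and Hlf was lower, at -0.42 ± 0.12. After CL316243, 1 was higher, Nfil3 at 1.05 ± 0.27, and 2 were lower, Hlf at -1.29 ± 0.13 and Tef at -0.41 ± 0.14. The shares of all genes were then 13.4% higher and 11.3% lower. Between fasted genotypes Cyp7a1 was at 0.30 ± 0.42. With fasting against feeding, where experiment and condition cannot be told apart, 6 of the 8 clock factors were lower and 2 higher in CTRL livers (median -1.06). In AAKO livers 2 were lower and 2 higher (median 0.02). Of all genes, 22.4% were lower and 20.9% higher in CTRL livers, and 35.7% lower and 27.8% higher in AAKO livers.

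**Figure D5:**
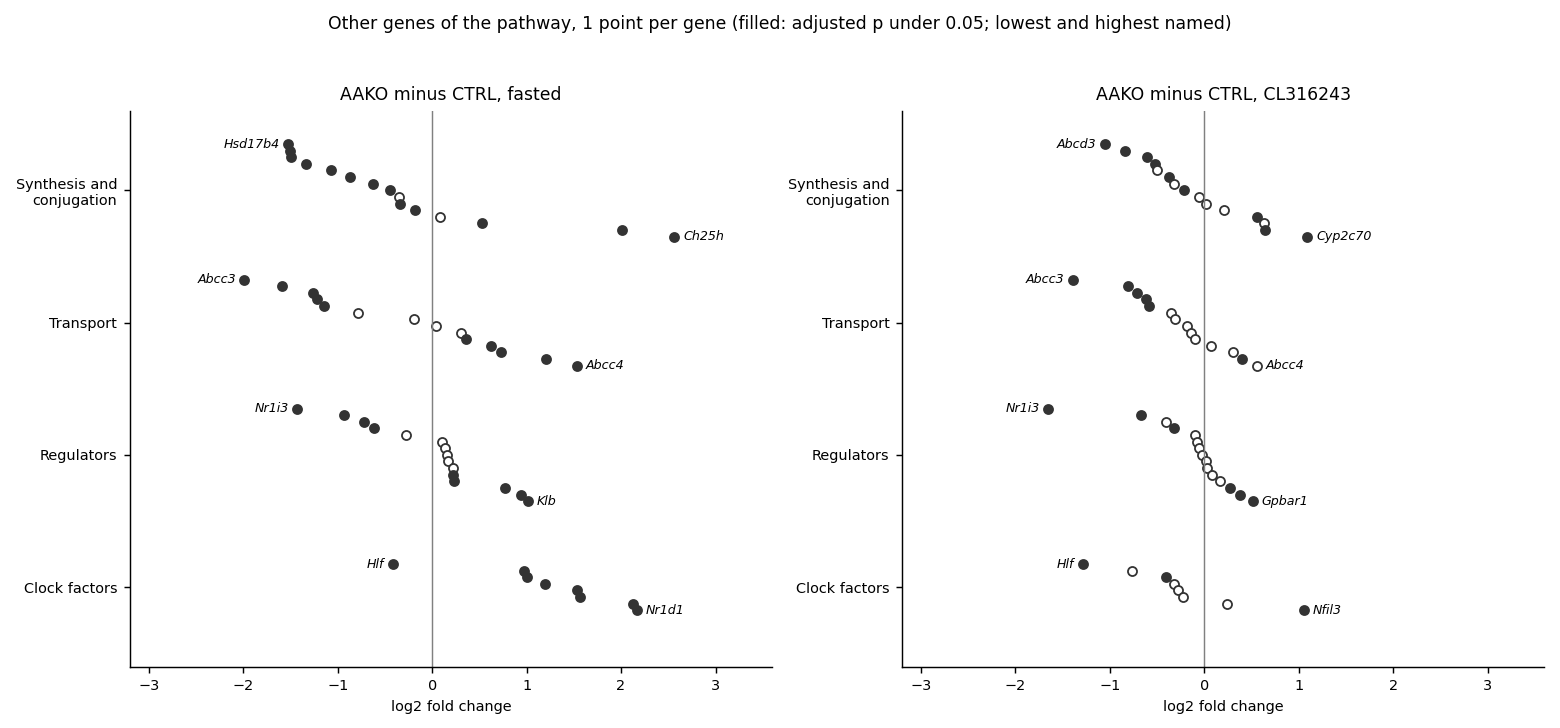
Log2 fold change of AAKO over CTRL (x axis) of the other pathway genes by role (y axis), 1 point per gene, when fasted on the left and after CL316243 on the right, filled where the adjusted p was under 0.05, with the lowest and highest gene of each role named. The clock factors lie between -0.42 (Hlf) and 2.17 (Nr1d1) on the left.

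Across the 6 group means, each centred on its own mean, the genes nearest to Abcb4 were A730009E18Rik, 2810442N19Rik and AK036131, with root mean square differences of 0.08, 0.09 and 0.11 where Abcb4 itself varied by 0.63 around its mean. Those nearest to Nr1h4 were C5ar2, Mttp and Tln2 (0.07, 0.09 and 0.10, with 0.40 for Nr1h4 itself). Slc10a1 was nearest to Pgm1, Ap3s1 and Ces1b (0.04 each, with 0.28 for Slc10a1), Abcb11 to Erg28, Oasl2 and Cyp2c38 (0.11 each, with 0.66 for Abcb11), and Cyp8b1 to Tymp, Sco2 and Ctcflos (0.09, 0.09 and 0.17, with 0.91 for Cyp8b1). Cyp7a1 had the most distant neighbours, Sipa1l2, 6030451C04Rik and Fzd8 (0.18, 0.23 and 0.27, with 0.63 for Cyp7a1). Cyp27a1 was nearest to Sema3f, ENSMUST00000118512 and Gpr137b-ps, Cyp7b1 to Irf5, AK028508 and 4930442J19Rik, Nr0b2 to Nat8, Bdnf and Slc16a12, and Fgfr4 to Naglu, Hagh and Tle2, with differences from 0.03 (Sema3f) to 0.15 (Slc16a12). Likeness over 6 means is a description only.

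Within groups, mice high in Slc10a1 tended to be high in Nr1h4. Over 36 arrays, after the group mean was subtracted, Pearson's r was 0.67 (permutation p = 9e-05, adjusted over 45 pairs 0.00405) and Spearman's rho 0.56 (permutation p = 0.00073, adjusted 0.0328). Pearson's r was 0.67 in wash batch 1 and 0.67 in wash batch 2, and 0.57 without the 2 arrays farthest from the median in Slc10a1. Replicate 3 of AAKO fasted, in wash batch 1, was lowest of its group in both genes (4.94 and 3.81). So was replicate 2 of CTRL fasted, in wash batch 2 (6.02 and 5.13), which was not among the 2 left out. No correlation was computed without both of these arrays. Cyp8b1 and Abcb11 ran opposite, with r of -0.47 (permutation p = 0.00202, adjusted 0.0455) and rho of -0.49 (permutation p = 0.00332, adjusted 0.0719). Their r was -0.44 and -0.51 in the wash batches and -0.38 without the 2 arrays farthest from the median in Cyp8b1. For the 43 other pairs the adjusted permutation p of Pearson's r was 0.0918 or more. Nr1h4 and Nr0b2, the receptor and its target, gave r of -0.43 (permutation p = 0.0155, adjusted 0.0996) and rho of -0.48 (permutation p = 0.00524, adjusted 0.0719), with -0.65 in wash batch 1 and -0.11 in wash batch 2. All 36 arrays share their scaling and their wash and slide layout, and the arrays are of separate mice.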

How the data were processed

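Liver RNA of 36 mice was measured on 36 arrays. The deposited scanner files hold spot intensity that Agilent's Feature Extraction software (version 10.10.1.1) wrote, background-subtracted and not scaled between arrays per the file headers, with marks for signal well above background. The authors also deposited log2 values for 36898 probes, without a stated normalization, although limma stands in the submitters' processing notes. Each of its 36 columns correlated best with the array of the same label (lowest r 0.99957), so scale and direction are known, and all columns of a group held the same sorted values. Its column medians were 6.91 in CTRL fed, 6.93 in AAKO fed, 6.97 in CTRL fasted, 7.01 in AAKO fasted, 6.91 in CTRL CL316243 and 6.88 in AAKO CL316243. Its columns thus had the same distribution within a group and different ones between groups. Its counts and shares of calls are therefore not like for like with those here. How its probes were chosen stays unknown.

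Values here are log2 of the processed intensity minus the log2 of the array's 75th percentile, without 2701 spots that carry an outlier mark (0.127%). Repeated spots gave 1 mean per probe. RefSeq accessions named 32994 of 56605 probes (GRCm38.p6, names only). A gene was represented by its brightest probe among those listing RefSeq transcripts of 1 gene at most, and 892 probes listed several. Genes needed a probe well above background on at least 5 of 6 arrays of a group. limma 3.58.1 (R 4.3.3) fitted 6 group means and the wash batch to all 36 arrays, with Benjamini-Hochberg adjustment over 24234 genes in each of 12 contrasts, two-sided. The script was tested on simulated data. Correlations used 100000 permutations within groups. Figures used matplotlib 3.10.9.

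Members, gene lists and the rule for named genes were chosen with earlier results of these data known. The rule named the 10 members, the 3 genes nearest to each over group means and, per role, the 2 highest and 2 lowest called pathway genes in the genotype contrasts of fasted and CL316243 mice, plus Klb, Nr5a2 and Hnf4a. Marker lists were used for 8 cell types. The labels do not say that samples of a group came from separate litters or extractions, so p-values measure only the spread between these samples, which may in part be technical. The number of arrays limits the precision.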

Additional observations from a re-analysis of the deposited data

Results flagged for a closer look

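Of 60 member and group combinations, 4 held an array whose gap to its nearest neighbour took up more of the group's range than Dixon's critical value allows, and chance gives about 1 such group in 20. Cyp7b1 stood at 4.53 in replicate 3 of CTRL fasted. Slc10a1 stood at 6.02 in replicate 2 of CTRL fasted and at 4.94 in replicate 3 of AAKO fasted. Nr1h4 stood at 5.13 in replicate 2 of CTRL fasted, the array that was also highest of its group on the first principal component. All 4 were the lowest of their group, and why was not tested. Without these arrays the fasted genotype difference was 0.70 for Cyp7b1, -0.81 and -0.57 for Slc10a1 and -1.34 for Nr1h4, each still called, while the Cyp7b1 interaction with fasting, 0.56, was not.

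The genotype difference itself changed with condition for several members, by limma's test of the interaction. With fasting against feeding it shifted by 0.89 for Cyp7b1, -0.70 for Slc10a1, -0.78 for Abcb11, -1.21 for Abcb4 and -1.46 for Nr1h4. With CL316243 against feeding it shifted by -0.99 for Abcb4 and -0.73 for Nr1h4. Between fasting and CL316243 it shifted by 2.06 for Cyp7a1, -0.73 for Nr1h4 and 0.44 for Fgfr4. The largest of these, that of Cyp7a1, was also the one whose wash batches lay farthest apart, at 0.82 and 3.48.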

How the results depend on the processing

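Of 58 called differences of single members, all 58 kept their direction and call without the wash batch term, with the slide as a random block (consensus correlation -0.0098) and with the replicate block. The replicate numbers gave no clear sign of pairing. The median correlation of deviations was 0.0032 in 90 same-numbered pairs and -0.0064 in pairs with other numbers. Of the same-numbered pairs 16 were over 0.1, a share not counted for the other pairs. The replicate block lost none of the 58 calls, but a weak pairing could pass unseen. Normexp kept 57 calls, the 75th percentile over probes detected on all arrays 57, the authors' deposited values 56, quantile normalization 56, no filter on dim probes 55, the slide as a fixed factor 55, a fit to the groups of the contrast 54 and the mean over probes 53. With 1 wash batch alone, 38 calls held in batch 1 and 35 in batch 2, with fewer arrays in each. Reversals came only from letting the brightest Slc10a1 probe stand for the gene although it lists several genes, an alternative chosen after seeing the data: 0.0346 for AAKO minus CTRL when fasted, 0.0554 after CL316243 and 0.1134 for CL316243 against feeding in AAKO livers, none called.

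The count of members called between genotypes was 4 when fasted in wash batch 2 alone, and 2 and 4 after CL316243 in batches 1 and 2. For CL316243 against feeding it was 2 in CTRL livers (batch 1) and 2 and 1 in AAKO livers (batches 1 and 2). Fasting against CL316243 in CTRL livers gave 3 in batch 1. The interaction with fasting gave 3 in batch 2, that with CL316243 gave 1 and 0 in batches 1 and 2 and 1 with the mean over probes, and that of fasting against CL316243 gave 1 in batch 1. Leaving out 1 array at a time gave 0 to 0 members between genotypes when fed, 6 to 7 when fasted and 4 to 7 after CL316243. It gave 7 to 7 and 7 to 8 for fasting against feeding in CTRL and AAKO livers, 4 to 5 and 3 to 4 for CL316243 against feeding, and 5 to 6 and 5 to 6 for fasting against CL316243. The interactions ranged over 4 to 6, 2 to 2 and 3 to 4. Over all genes, 17 were called between fed genotypes here and 27 in the authors' table. That table moved the median of all genes by 0.1005 for fasting against feeding in AAKO livers, 0.1313 for fasting against CL316243 in AAKO livers and 0.1092 for the interaction between those conditions. The other pathway genes were not refitted under the alternatives. All member probes were well above background. Even so, the fasted genotype difference of Nr0b2 went from -1.11 to -0.69 under normexp and -0.81 in the authors' table, and lost its call in both.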
